A study of Mus musculus with 8 samples.

Results

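The genes Ly6c1, Ly6c2, Ly6a, Ly6e, Ly6i and Ly6g, members of the mouse Ly6 family of small surface proteins, were followed through sorted myeloid cells of tumor-bearing mice. They were chosen by name, as the family members that bear the sort marker (Ly6c1 and Ly6c2), the neutrophil marker (Ly6g) and their neighbours, and made up 6 of the 32285 genes counted. Cells that bore CD45 and CD11b and were high for Ly6C, the definition of monocytic myeloid-derived suppressor cells in this study, were sorted from tumors grown out of MC38, a mouse colon carcinoma line, or from the blood of hosts with such tumors, all on the C57BL/6J background. Each of 4 droplet libraries (blood control, blood IR, tumor control, tumor IR) mixed cells of Ythdf2 fl/fl mice without Cre, called WT, with cells of Lyz2-Cre Ythdf2 fl/fl mice, called cKO, and each genotype carried its own hashtag antibody. A barcode with at least 20 hashtag UMIs was labelled WT where hashtag B0301 was at least as high as B0302, and cKO where B0302 was at least 4 times as high as B0301. In the IR libraries the tumors had received 1 dose of 20 Gy of ionizing radiation (IR) 3 days before the cells were taken, and the control tumors had none. Both genotypes carry the floxed Ythdf2 alleles and bear the same MC38 tumor cells, whose own Ythdf2 the Cre does not reach. The Cre is driven from the Lyz2 locus, which is active in monocytes, macrophages and neutrophils, so lymphoid and stromal cells should keep Ythdf2. Each group was a pool of mice in 1 library, and the study's methods give an age of 8 to 10 weeks for its mice of both sexes.

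The Ly6 family belongs to the Ly6/uPAR superfamily, whose members share a fold of finger-like loops held by disulfide bonds and are mostly tied to the outer membrane by a glycolipid (GPI) anchor. Ly6C, made from Ly6c1 and Ly6c2, marks inflammatory monocytes in mouse blood and is the antigen by which these cells were sorted, and Ly6G marks neutrophils. The product of Ly6a is Sca-1, known from hematopoietic stem cells, activated lymphocytes, fibroblasts and endothelium, and its gene responds to interferons. Ly6e is widely expressed and interferon-responsive, and Ly6i is a relative of Ly6c found in myeloid cells.

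All 6 genes lie on chromosome 15 within 204.076 kb (mm10 coordinates of the annotation). Ly6e runs from 74955051 to 74959905 on the plus strand, Ly6i from 74979534 to 74983430 on the minus strand and Ly6a from 74994877 to 74998031 on the minus strand. Ly6c1 follows at 75044018 to 75048830 and Ly6c2 at 75108158 to 75111970, both on the minus strand, and Ly6g at 75155240 to 75159126 on the plus strand. The coding sequences of Ly6c1 and Ly6c2 were identical at 384 of 393 bases (97.7%), those of Ly6a and Ly6i at 86.3% of aligned positions, and Ly6e shared at most 52.7% with any other member. Because 3′ reads count these genes, near copies matter at the transcript end. Of all 50-base windows in the last 400 bases of the coding transcripts, 35.4% of those of Ly6c2 and 29.4% of those of Ly6c1 also occurred in another gene, the other Ly6c gene among them. The share was 9.27% for Ly6a, 3.18% for Ly6i, 0.313% for Ly6g and 0 for Ly6e. Reads from such windows cannot be told apart, while the UMIs counted here fell to 1 gene in clusters described further on: monocyte-like B2 held 51440 UMIs of Ly6c2 and 13 of Ly6c1, and fibroblast-like T10 held 55 and 7259.

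The promoters of Ly6c1, Ly6c2 and Ly6g are shown because only these members had a promoter sequence at hand. These neighbours also turned out to be counted in different cells. Each line gives the 250 bases before the RefSeq start (GRCm38.p6), 5′ to 3′ on the gene's strand, at chr15:75048838-75049087 (minus), chr15:75111972-75112221 (minus) and chr15:75155011-75155260 (plus). Capitals mark matches to the TATA box, TATAAA, or to a site of PU.1 and other ETS factors of myeloid cells, GAGGAAGT.
Ly6c1: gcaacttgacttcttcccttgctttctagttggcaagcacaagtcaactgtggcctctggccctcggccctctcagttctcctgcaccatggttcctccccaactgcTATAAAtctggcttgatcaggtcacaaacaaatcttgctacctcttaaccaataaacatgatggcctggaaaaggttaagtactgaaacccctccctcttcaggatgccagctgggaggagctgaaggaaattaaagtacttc
Ly6c2: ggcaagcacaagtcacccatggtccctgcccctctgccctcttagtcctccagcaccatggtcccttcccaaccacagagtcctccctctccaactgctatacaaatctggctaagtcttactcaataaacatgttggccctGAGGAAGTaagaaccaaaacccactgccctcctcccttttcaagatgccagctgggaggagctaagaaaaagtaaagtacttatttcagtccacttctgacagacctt
Ly6g: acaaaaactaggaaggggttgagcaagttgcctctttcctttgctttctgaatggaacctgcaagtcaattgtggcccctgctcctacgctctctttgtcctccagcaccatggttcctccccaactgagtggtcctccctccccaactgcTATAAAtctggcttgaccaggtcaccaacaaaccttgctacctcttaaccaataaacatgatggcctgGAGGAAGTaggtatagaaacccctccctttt

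Counted back from the start, TATAAA stood at -143 in Ly6c1 and at -99 in Ly6g, and GAGGAAGT stood at -108 in Ly6c2 and at -31 in Ly6g. On both strands, the core of the interferon-stimulated response element and the gamma-activated site TTCNNNGAA had no match in these windows, which says only that these letters are not in them. Among 32851 promoter windows of the same length, 12.4% held TATAAA, 2.44% held GAGGAAGT, 2.98% held the response element core and 7.02% held TTCNNNGAA. A second annotated start of Ly6c1 had GAGGAAGT at -127, so the motif content depends on the start that is used. The best local alignment of the Ly6c1 and Ly6c2 windows was identical at 164 of 227 positions (72.2%). No promoter sequence was at hand for Ly6a, Ly6e and Ly6i, which are named only.

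Reads carried unique molecular identifiers (UMIs), so each count stands for a molecule, and a level is given as CPM, the UMIs of a gene per 1000000 gene UMIs of the group. The 28652 kept cells fell into 8 groups of 2157 to 4812 cells and 19220731 to 24676181 gene UMIs, with median UMIs per cell of 2805 to 3152 in blood and 5951 to 8374 in tumor. Each group was 1 sample, so there is no replicate, no p-value is given, and all intervals are 95% intervals that cover counting error only. The tumor matrices stood apart in that they shared 12558 cell barcodes of at least 500 UMIs, against 24 to 46 for the other pairs of matrices, and 7327 of 13144 and 4958 of 12927 such barcodes in tumor control and tumor IR had under 20 hashtag UMIs in their own matrix. The kept tumor cells are the others, and 33 barcodes were kept in both tumor libraries. Of the tumor barcodes under 20 hashtag UMIs, 7325 of 7327 and 4955 of 4958 had hashtags in the other tumor matrix. The 2 tumor matrices thus held largely the same barcodes, and control and IR cells were told apart by the matrix that held their hashtags. Of 2524 kept cells of tumor control WT, 2520 were also found in the tumor IR matrix. Read there, they had 459 CPM of Ly6c2 against 449 in their own matrix, and cells of tumor IR WT had 1399 against 1450. This agreement does not show that the libraries were separate captures. The hashtag labels went against the targeted gene: in every library Ythdf2 was higher in cells labelled cKO, at 303 CPM against 32.5 in blood control, 336 against 34.9 in blood IR, 373 against 55.6 in tumor control and 340 against 51.4 in tumor IR. The 3′ tags need not lie in the deleted part of the gene and so did not check the deletion. Lyz2, the site of the Cre, was lower in every cKO label (82.8 to 139 CPM against 5628 to 13981), and the genotypes are therefore written as the cells labelled WT and the cells labelled cKO.

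The sort gene was not seen in every sorted cell. A UMI of Ly6c1 or Ly6c2 was found in 36.4% (35.0 to 37.8) of WT-labelled and 42.1% (40.5 to 43.7) of cKO-labelled cells of blood control, in 36.6% and 38.4% in blood IR, in 55.3% and 41.7% in tumor control, and in 67.2% and 64.2% in tumor IR. In blood Ly6c2 was the gene seen in nearly all of them, since Ly6c1 had 7 to 15 UMIs in each group. In cKO-labelled cells of tumor control, 675 of the 900 such cells had a UMI of Ly6c2 and 252 one of Ly6c1. Cells of at least 1000 UMIs were also thinned to 1000 UMIs each, with smaller cells left out. The shares of these cells with a Ly6c2 UMI were 21.4%, 23.4%, 24.5% and 24.5% in the blood groups, 28.1% and 13.7% in control tumors and 45.5% and 41.3% in irradiated tumors, in the same order of labels. Fibroblast-like cells of the tumor, a kind that should lack Ly6c2, held a UMI of it in 7.18% of 418 cells of cluster T10, at a median of 29525.5 UMIs, and in 15.1% of 73 cells of cluster T16, at a median of 1992 UMIs. Shares in that range were not read as expression. Among other markers of the sort, Itgam, which encodes CD11b, stood at 331 CPM or more in every group and Ptprc, which encodes CD45, at 310 CPM or more. Markers of other cells were abundant: neutrophil-like cells made up 70.7% of kept blood cells and monocyte-like cells 14.5%.

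Ly6c2, a source of the Ly6C antigen, had its highest level in irradiated tumors and its lowest in control tumors. It stood at 768 CPM in WT-labelled and 659 in cKO-labelled cells of blood control, at 1091 and 1087 in blood IR, at 449 and 156 in control tumors and at 1450 and 1157 in irradiated tumors. The counting intervals of neighbours in this order overlapped only for the 2 blood IR groups. Ly6e, the most evenly spread member, ran from 738 CPM in cKO-labelled cells of tumor control to 1607 in WT-labelled cells of tumor IR. In between it stood at 1187 and 1256 in blood control, 1500 and 1579 in blood IR, 1069 in WT-labelled cells of tumor control and 1499 in cKO-labelled cells of tumor IR.

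Ly6a (Sca-1) was nearly absent from blood: it stood at 8.59 and 10.9 CPM in blood control and 18.8 and 16.4 in blood IR, but at 939 and 673 in control tumors and 1593 and 1621 in irradiated tumors. Within each of blood control, blood IR and tumor IR its intervals for the 2 labels overlapped. Ly6i showed 188 CPM in WT-labelled and 66.2 in cKO-labelled cells of tumor control, against 176 and 183 after IR. In blood it had 27.0, 44.2, 26.0 and 27.0 CPM, and cKO-labelled cells of blood control stood above the other 3 groups, whose intervals overlapped.

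Ly6c1 and Ly6g were each nearly limited to 1 tissue. Ly6c1 had 92.7 CPM in WT-labelled and 125 in cKO-labelled cells of tumor control, against 79.8 and 49.2 after IR, and at most 0.69 in blood. Ly6g had 30.8 and 77.1 CPM in blood control and 47.3 and 57.7 in blood IR, whose 4 intervals did not overlap. In tumor it was read from 1, 2, 11 and 11 UMIs, or at most 0.54 CPM, so no order among the tumor groups was read for it.

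**Figure D1:**
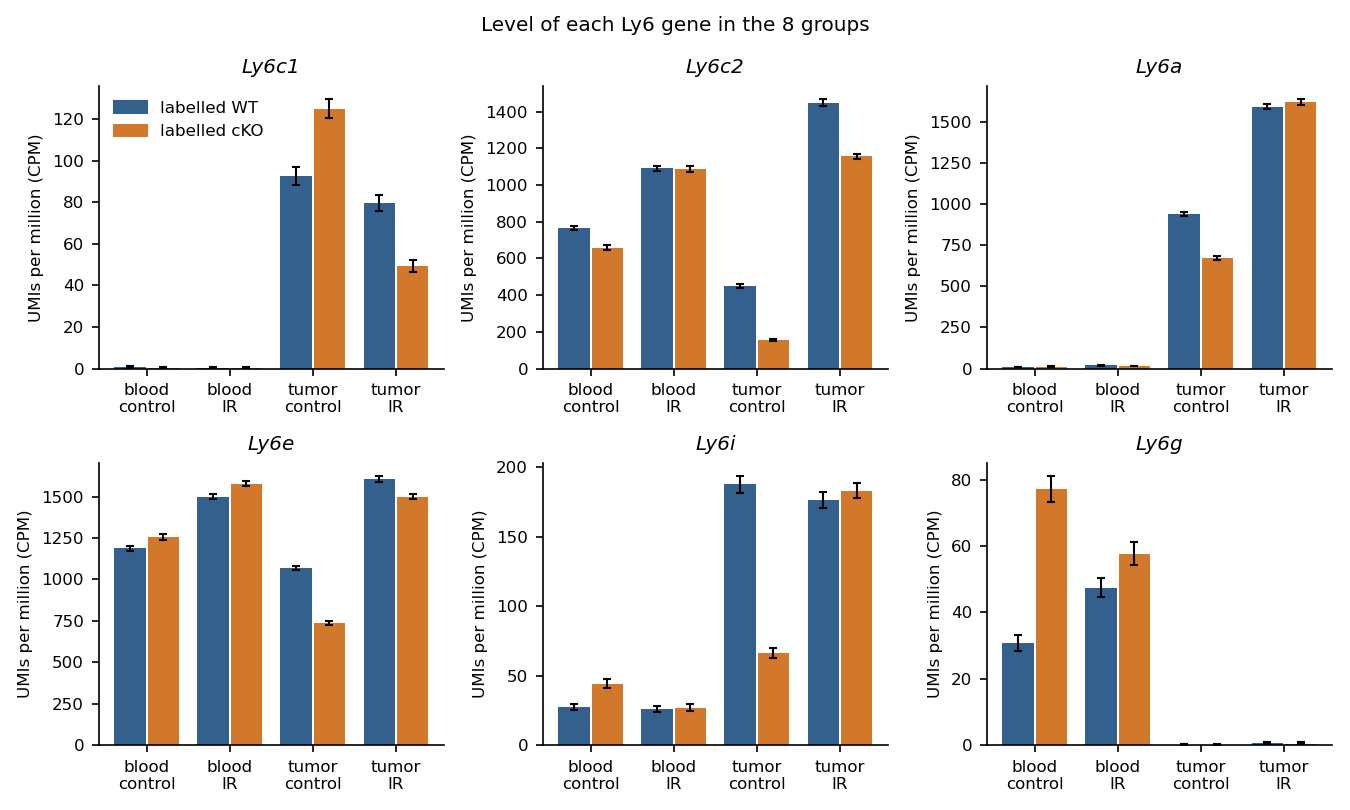
Level of each member (CPM, linear axis from 0) in the 8 groups, with WT-labelled cells in blue and cKO-labelled cells in orange, and exact Poisson 95% intervals as error bars that cover counting error only. Ly6c1 and Ly6a stand in tumor, Ly6g in blood, and Ly6c2 ranges from 156 CPM in cKO-labelled cells of tumor control to 1450 in WT-labelled cells of tumor IR.

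Cells were then clustered within each tissue without the Ly6 genes, which gave clusters B0 to B16 in blood and T0 to T16 in tumor, named by marker lists. The names are not the study's own, and 47.2% of tumor cells stayed in unnamed clusters. Cells of a cluster share libraries and mice and are not replicates, so cluster levels are descriptions.

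Ly6c2 was counted in more than monocyte-like clusters. In blood it stood at 1908 CPM (1892 to 1925) in monocyte-like cluster B2 and at 2408 in B9, the monocyte-like cluster led by cell cycle genes such as Mki67 and Birc5. NK cell-like B6 had 1725 CPM, with a UMI in 96.5% of its cells, against 99.0% in B2 and 14.9% in B cell-like B12. Nonclassical monocyte-like B4 had 558 CPM, T cell-like B13 had 886 and dendritic cell-like B8 had 591, while the neutrophil-like clusters ran from 55.9 CPM in B0 to 880 in B11. Barcodes of 10 to 99 UMIs, which hold free RNA, had Ly6c2 at 706 CPM in blood control and 1032 in blood IR. B2, B9 and B6 stood above both values, the other blood clusters named here did not, and the part of free RNA in them was not tested. In tumor the highest level, 3112 CPM (3072 to 3152), was in T3, a monocyte-like cluster led by interferon-induced genes such as Ifit1, Rsad2 and Cmpk2. T1, unnamed and led by Ly6i and Havcr2, had 1364 CPM, macrophage-like T4, led by Cxcl3 and Thbd, had 1159 and nonclassical monocyte-like T2 had 1152. The C1q-bearing macrophage-like cluster T6 had 34.2 CPM and dendritic cell-like T14 had 17.9.

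Ly6a was highest in tumor in T3 (2572 CPM) and in T9 (2151), an unnamed cluster led by Cd209a and Ccl17, and fibroblast-like T10 had 1176. In blood it was highest in B cell-like B12, at 430 CPM, and stood at 35.7 in nonclassical monocyte-like B4, 7.27 in B2 and at 0 UMIs in the 404 cells of NK cell-like B6, which allows a level of up to 2.11 CPM (3 counts). Ly6i stood at 109 CPM in B4 against 15.2 in B2, and in tumor at 381 in T1, 266 in T3 and 217 in T0, an unnamed cluster that expressed class II genes. In T6 and T10 it was at 8.92 and 1.77 CPM. Ly6e was at 2050 CPM in B4 and 1977 in B2, and among neutrophil-like clusters of over 1000 cells it was highest, at 1073 CPM, in B3, which is led by Ifit1 and Rsad2.

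Ly6g was highest where genes of immature neutrophils led a cluster. It was 709 CPM (658 to 763) in B11, whose leading genes Ltf, Ngp and Camp encode granule proteins made by immature neutrophils, 258 in B5, led by Lcn2 and Retnlg, 140 in B7, 135 in B1 and 39.1 in B0, led by Csf1 and Ptgs2. Monocyte-like B2 had 0.74 CPM. The tumor cluster T7, neutrophil-like by 8 markers including S100a8, S100a9 and Cxcr2, held Ly6g at only 12 CPM (6.74 to 19.9), with a UMI in 2.09% of 622 cells at a median of 1915 UMIs, against 0.561% of B2 cells, which should lack it, at a median of 11261 UMIs.

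Ly6c1 was counted mainly outside the immune classes. T10 held 96.8% of the Ly6c1 UMIs of WT-labelled cells in tumor control, 97.3% in cKO-labelled cells, and 93.9% and 89.1% in tumor IR, from 4.28%, 10.6%, 1.49% and 0.92% of the cells. Its level was 536 CPM in T10 and 640 in fibroblast-like T16, against at most 6.58 in the tumor clusters other than these and T cell-like T15 (21.1). T10 expressed Sparc at 1708, Col3a1 at 1190 and Dcn at 893 CPM, but Lum at 1.18 and Pdgfra at 11.1, Ptprc at 3.69 and Itgam at 4.65, with Epcam, Krt8 and Krt18 at 0 and Cdh1 at 0.96. It also held 6 cell cycle markers, Mki67 and Birc5 among them, at least 2-fold above other tumor cells. Tm4sf1 and Sox9 were among its leading genes. Whether these cells are fibroblasts or MC38 cells was not tested, so fibroblast-like is a name by markers only. In blood, T cell-like B13 had 21 of the 40 Ly6c1 UMIs.

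**Figure D2:**
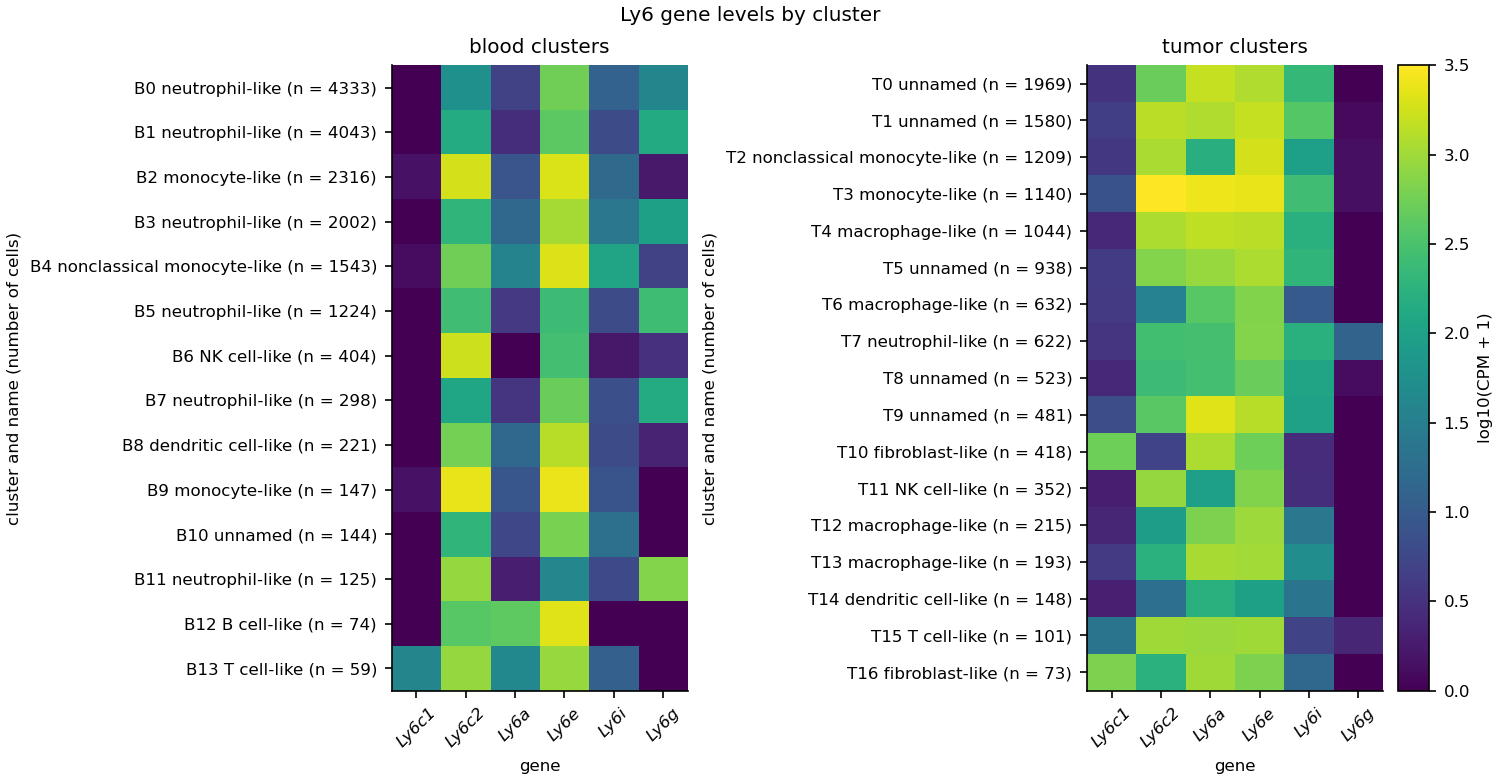
Level of each member by cluster, as log10(CPM + 1) on a color scale from dark (0) to yellow (3.5), in blood clusters (left) and tumor clusters (right) with at least 50 cells, each with its name and number of cells. Ly6g is brightest in B11 (709 CPM) and the other neutrophil-like clusters of blood, Ly6c1 in T16 and T10 (640 and 536 CPM), and Ly6c2 is bright in NK cell-like B6 (1725 CPM) as well as in monocyte-like clusters.

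For the comparisons, a log2 ratio of CPM was taken after adding 1 UMI to each sum, and a gene with at least 100 UMIs over the 2 groups was called higher or lower past a ratio of 1 on the log2 scale (2-fold). In summed cells, fewer cells of a type and less RNA of a gene per cell cannot be told apart, so each comparison is repeated within clusters. The share of all genes called in the same direction is given as background.

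Irradiated tumors held more Ly6c2. In WT-labelled cells it went from 449 to 1450 CPM, a log2 ratio of 1.69 (1.66 to 1.73), and in cKO-labelled cells from 156 to 1157 CPM, 2.89 (2.84 to 2.94). Over the alternatives run, these ratios lay between 1.19 and 2.27 and between 2.28 and 3.09. Of WT-labelled cells, 995 of 2524 in tumor control and 2423 of 3155 in tumor IR had B0301 at least 4 times B0302. Ly6a went from 939 to 1593 CPM (0.76, under the limit) and from 673 to 1621 CPM (1.27), and Ly6e from 1069 to 1607 (0.59) and from 738 to 1499 (1.02). Ly6i went from 188 to 176 CPM in WT-labelled cells (-0.09) and from 66.2 to 183 CPM in cKO-labelled cells (1.46). Ly6c1 went the other way, by -0.22 in WT-labelled and -1.34 in cKO-labelled cells.

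In WT-labelled cells 1 of the 5 counted members was higher and 0 were lower, against 2.6% and 3.23% of 10149 genes, and in cKO-labelled cells 4 were higher and 1 lower, against 5.13% and 17.1% of 10673 genes. The median ratio of the members was 0.59 and 1.27, against -0.13 and -0.18 over all genes. Ly6g, with 1 against 11 and 2 against 11 UMIs, had too few to be counted. With TMM scaling the medians of all genes became 0.01 and 0.01, and the genes called changed from 264 higher and 328 lower to 342 and 202 in WT-labelled cells and from 548 and 1829 to 829 and 1447 in cKO-labelled cells. The same members were past the limit.

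The cell mix differed too. Monocyte-like T3 held 34 and 10 cells in tumor control but 528 and 568 in tumor IR, where it gave 42.8% and 35.3% of Ly6c2 UMIs, and without T3 the Ly6c2 ratio was 1.19 in WT-labelled and 2.53 in cKO-labelled cells. Fibroblast-like cells went from 11.5% to 1.26% of cKO-labelled cells, and without them the ratio of Ly6c1 was 0.57, of opposite sign, and that of Ly6i 1.02. Without the fibroblast-like cells, without T3, with no doublet removal or as a mean of per-cell CPM, Ly6e of cKO-labelled cells fell under the limit (lowest 0.87). Taking every tumor barcode without a hashtag minimum, so that most barcodes counted in both libraries, cut the ratio of both labels pooled from 2.15 to 0.60 for Ly6c2 and from 1.02 to 0.30 for Ly6a.

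**Figure D3:**
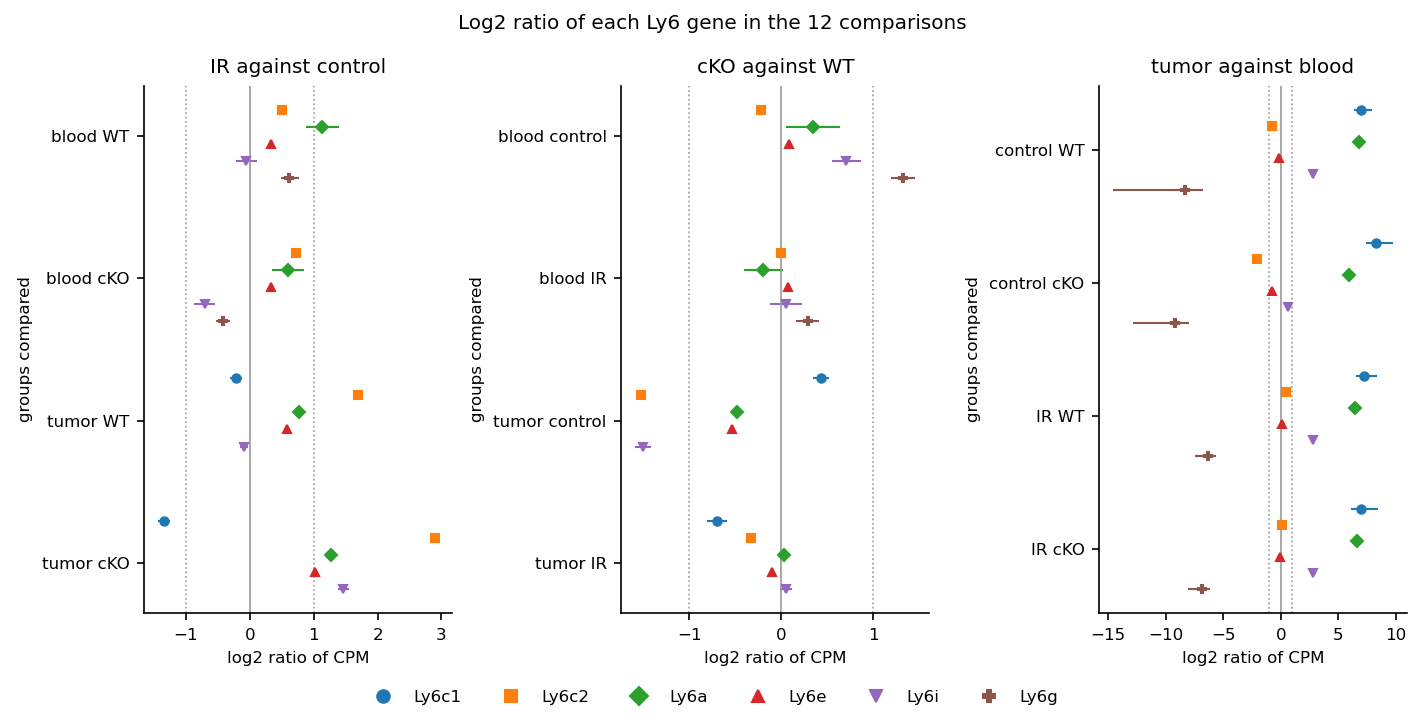
Log2 ratio of each counted member in the 12 comparisons, IR against control (left), cKO label against WT label (middle) and tumor against blood (right), with horizontal lines for exact 95% counting intervals and dotted lines at -1 and 1. Ly6c2 has the highest ratio in both tumor IR comparisons (1.69 and 2.89), the right panel has a wider axis, and members with under 100 UMIs are left out.

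Within clusters of at least 50 cells in both groups, Ly6c2 had a positive ratio in each where it was counted, in 8 of 8 for WT-labelled cells (0.23 to 2.12, 2 past the limit) and in 9 of 9 for cKO-labelled cells (0.24 to 4.35, 7 past the limit). In the unnamed cluster T0 it went from 313 to 998 CPM in WT-labelled and from 177 to 809 CPM in cKO-labelled cells. In macrophage-like T4 it went from 330 to 1442 and from 271 to 1149 CPM, over only 79 and 51 control cells. The highest ratio, 4.35, was that of the C1q-bearing T6, with 6.35 CPM in control and 138 in irradiated cKO-labelled cells. Over all its 632 cells T6 had a Ly6c2 UMI in 8.70%, a share in the range not read as expression. Its ratio was therefore not read as a change in expression. Of all genes counted in these clusters, 0.526% to 4.79% were called higher in WT-labelled and 1.32% to 10.6% in cKO-labelled cells. Barcodes of 10 to 99 UMIs held Ly6c2 at 863 CPM in tumor control and 1353 in tumor IR, and the part of this free RNA in the ratios was not tested. In nonclassical monocyte-like T2 the ratios were 0.23 and 0.44, and in NK cell-like T11 0.31 and 0.24, all under the limit.

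Ly6a also had positive ratios, in 7 of 7 clusters of WT-labelled cells (1 past the limit) and in 8 of 8 of cKO-labelled cells (8 past the limit, 1.01 to 3.75). The highest, in T4, and that of T8 were counted only through irradiated cells, from 125 and 131 CPM in control. Neither was read as a result. In T9 Ly6a went from 1636 to 3024 CPM and from 1147 to 2638 CPM. Ly6i split by label: it was positive in 1 of 7 clusters of WT-labelled cells (median -0.40) and in 4 of 7 of cKO-labelled cells (median 0.72). In cKO-labelled cells T4, T5 and T8 were counted for Ly6i only through irradiated cells, and T5 of WT-labelled cells only through control cells. Their direction was not read as a result. In T1, where Ly6i was highest, it went from 499 to 311 CPM in WT-labelled cells (-0.68) and from 358 to 335 in cKO-labelled cells (-0.10). The 14 genes of the interferon response list that were counted were all past the limit upward in both labels (medians 2.71 and 3.46), and their part in the levels of the Ly6 genes was not tested.

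**Figure D4:**
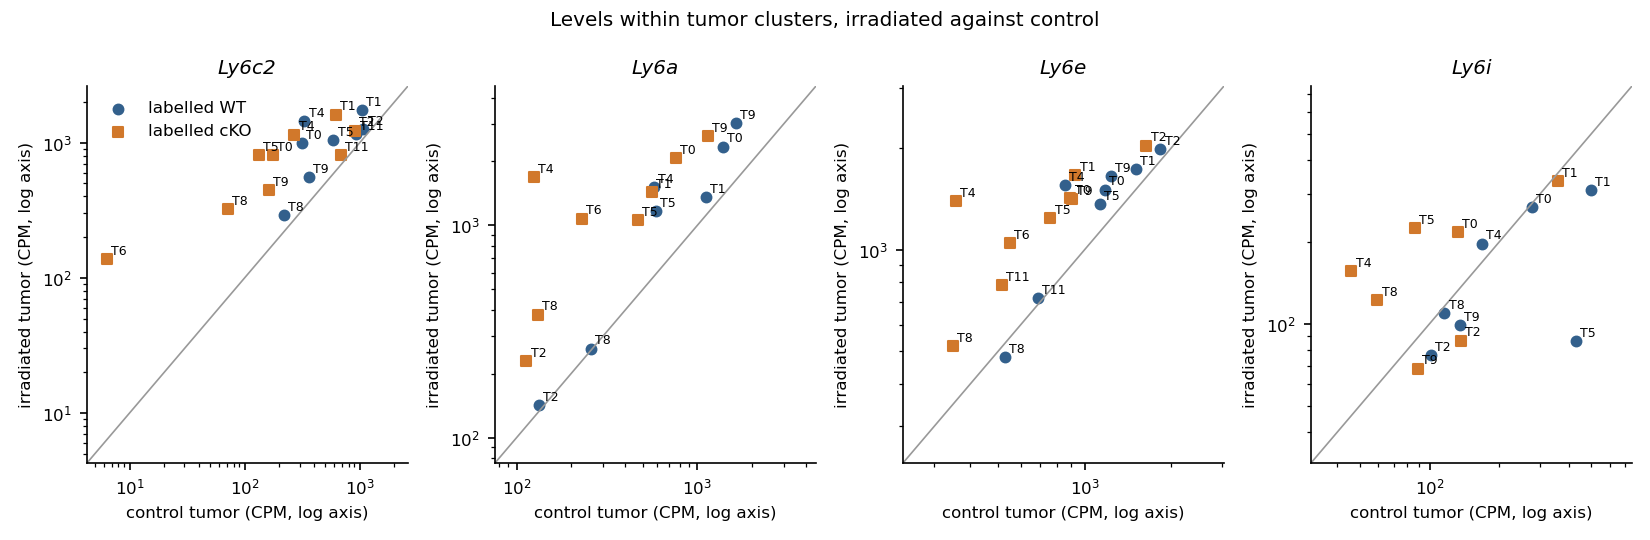
Level of Ly6c2, Ly6a, Ly6e and Ly6i in control tumor (x, CPM, log axis) and irradiated tumor (y, CPM, log axis) for each tumor cluster with at least 50 cells in both groups and at least 100 UMIs, in WT-labelled (blue circles) and cKO-labelled cells (orange squares), with the line of equality. All Ly6c2 and Ly6a points lie above the line, whereas 6 of 7 WT-labelled Ly6i points lie below it. Some points of Ly6c2, Ly6a and Ly6i, such as T8 of cKO-labelled cells, reached 100 UMIs only through irradiated cells.

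In blood the same comparison gave small ratios. Ly6a was higher in WT-labelled cells of irradiated mice, 18.8 against 8.59 CPM, a ratio of 1.13 (0.88 to 1.39) from 431 and 186 UMIs, and was 0.59 in cKO-labelled cells. This was 1 of 5 counted members higher and 0 lower, against 0.348% and 1.0% of 9780 genes, and in cKO-labelled cells 0 were higher or lower, against 0.431% and 0.925% of 9512 genes. Ly6c2 had ratios of 0.51 and 0.72, Ly6e 0.34 and 0.33, Ly6i -0.06 and -0.71 and Ly6g 0.62 and -0.42. Within clusters of cKO-labelled cells the ratio of Ly6g was positive in each of the 4 where it was counted, at 0.48 in B0 and B1, 0.29 in B3 and 1.57 in B5, opposite in sign to that over all cells. The call of Ly6a was lost with the stricter hashtag rule and with a mean of per-cell CPM (lowest 0.97). Nonclassical monocyte-like B4 held 57.1% of the Ly6a UMIs of WT-labelled cells in blood IR, and within B4 Ly6a went from 17.1 to 67.3 CPM (1.96) in WT-labelled and from 20.7 to 45.1 CPM (1.12) in cKO-labelled cells. In WT-labelled cells this came from 65 and 246 UMIs, so B4 was counted there only through irradiated mice. Of all genes counted in B4, 0.233% of 6427 were called higher in WT-labelled and 0.101% of 6905 in cKO-labelled cells. Within monocyte-like B2, Ly6c2 went from 1704 to 2250 CPM (0.40) and from 1426 to 2090 CPM (0.55).

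In control tumors the cells labelled cKO had less Ly6c2 and less Ly6i than those labelled WT. Ly6c2 was 156 CPM against 449, a ratio of -1.53 (-1.58 to -1.47), and Ly6i 66.2 against 188, -1.50 (-1.59 to -1.42). Ly6a (-0.48), Ly6e (-0.53) and Ly6c1 (0.43) stayed under the limit, so 0 of 5 members were higher and 2 lower, against 3.56% and 1.31% of 10661 genes. Scaling by TMM moved the median of all genes from 0.11 to 0.05 and the genes called from 379 higher and 140 lower to 281 and 174. With the stricter hashtag rule, which leaves 995 of 2524 WT-labelled cells, Ly6c2 came to -0.97 and Ly6c1 to 1.03.

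The cKO-labelled cells of tumor control held 26.4% macrophage-like and 11.5% fibroblast-like cells, against 11.8% and 4.56% of WT-labelled cells, and 8.07% against 20.1% of them were in T1. Within clusters the ratio of Ly6c2 was negative in 8 of 8 (3 past the limit), Ly6a in 9 of 9 (1 past the limit) and Ly6i in 6 of 7 (3 past the limit). In T0 the values were 177 against 313 CPM of Ly6c2, 764 against 1388 of Ly6a and 132 against 277 of Ly6i. Of all genes counted, 0.332% were called lower in T0 and 0.754% in T1, and the shares of other clusters are not given here. In T10, where Ly6c1 was counted, it was 403 CPM in the cKO label against 541 (-0.43), while the ratio over all cells was 0.43. Of the interferon response list, 7 of 14 genes were lower and 0 higher in the cKO label (median -0.99).

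Over all cells of irradiated tumors no member passed the limit between the labels. Ly6c2 was 1157 CPM in cKO-labelled against 1450 in WT-labelled cells (-0.33), Ly6c1 49.2 against 79.8 (-0.70), and Ly6a, Ly6e and Ly6i were within 0.11 of 0. Of the 5 counted members 0 were higher or lower, against 0.209% and 0.997% of 10029 genes. Within T3 Ly6c2 was 2663 against 3739 CPM (-0.49) and Ly6a 2643 against 2562 (0.04). In the unnamed cluster T5, of a median of 1396.5 UMIs, Ly6i was 226 CPM in the cKO label against 86.5 (1.36), the 1 member called between the labels within a cluster there. The share of all genes called in T5 is not given here. No test of the difference between the control and irradiated comparisons was possible with 1 pool a group.

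Over all cells of blood the labels differed past the limit only in Ly6g of the control library, at 77.1 CPM in cKO-labelled and 30.8 in WT-labelled cells, 1.32 (1.19 to 1.46). That was 1 of 5 members higher and 0 lower, against 0.685% and 1.55% of 9639 genes, and in blood IR 0 were higher or lower, against 0.155% and 0.465% of 9669 genes. In blood control Ly6i had a ratio of 0.71, Ly6c2 of -0.22, Ly6a of 0.34 and Ly6e of 0.08. The Ly6g difference went with clusters B5 and B11. B5 held 1082 cKO-labelled cells of blood control and 41 to 57 cells of each other blood group, and B11 held 88 against 14, 16 and 7. B5 gave 52.4% and B11 24.8% of the Ly6g UMIs of cKO-labelled cells in blood control, and without B5 the ratio was 0.66. Within neutrophil-like clusters B0, B1 and B3 it was -0.34, 0.51 and 0.44. The 1 member called between the labels within a blood cluster was Ly6c2 in B3 of the control library, at 124 CPM in the cKO label against 255 (-1.03). It had 76 and 244 UMIs, so B3 was counted only through the WT label. Of 1917 genes counted there, 1.2% were called lower. Whether B5 and B11 are cell states of the cKO label or of that pool cannot be told apart.

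Between tissues the family divided. Ly6a was higher in tumor in all 4 pairs, by 6.77, 5.95, 6.40 and 6.62 on the log2 scale (WT and cKO label in control, then in IR), as was Ly6i by 2.79, 0.58, 2.76 and 2.76, the second under the limit. Ly6c1 was higher by 6.97, 8.25, 7.24 and 6.93, and Ly6g lower by -8.30 (-14.57 to -6.78), -9.19 (-12.87 to -7.97), -6.33 and -6.88, but both had 100 UMIs through 1 tissue only and therefore had to differ. Without fibroblast-like cells the ratio of Ly6c1 was 3.35 in irradiated cKO-labelled cells. Ly6c2 was lower in tumor past the limit in cKO-labelled cells of control mice alone (-2.08, and -0.72 as a mean of per-cell CPM), with -0.77, 0.41 and 0.09 in the other pairs, and Ly6e lay between -0.77 and 0.10. Of the 4 members other than these, 2 were higher and 0 lower in WT-labelled control cells, against 20.1% and 15.6% of 10387 genes, and 1 and 1 in cKO-labelled control cells, against 27.5% and 16.5% of 10753. In irradiated mice 2 were higher and 0 lower in each label, against 16.2% and 16.6% of 10159 genes in WT-labelled cells and 16.0% and 16.3% of 10096 in cKO-labelled cells. TMM scaling moved the median of all genes in cKO-labelled control cells from 0.23 to 0.08, with the same members past the limit. The tissues differ in library and cell mix, and the 4 pairs were each read from 2 libraries, so tissue and library cannot be told apart.

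There were 6 classes found in both tissues, each made of different clusters in blood and in tumor. The tumor monocyte-like class was T3 alone, led by interferon-induced genes, with 528 and 568 of its 1140 cells from irradiated tumors, and the tumor neutrophil-like class was T7, with 331 and 245 of 622. The blood classes drew on control and irradiated mice, so tissue, irradiation and cluster cannot be told apart in them. Ly6a was higher in tumor in each of the 5 in which it was counted. In T cell-like (23 UMIs in blood, 673 in tumor) and dendritic cell-like cells (35 and 159) it was counted only through tumor. Their direction was therefore not read as a result. Ly6a was 7.29 CPM in blood and 2572 in tumor in monocyte-like cells, a ratio of 8.45 (8.27 to 8.66) against 11.5% of 9402 genes higher in that class. It was 4.53 against 292 CPM in neutrophil-like, 41.9 against 948 in T cell-like, 13.7 against 168 in dendritic cell-like and 35.7 against 160 in nonclassical monocyte-like cells. The shares of genes higher in tumor there were 11.8% of 7489, 15.1% of 1681, 13.5% of 4300 and 6.79% of 8702, in the same order. NK cell-like cells had 0 UMIs of Ly6a in blood and 98 in tumor. RNA free in the droplets carries Ly6a in tumor: barcodes of 10 to 99 UMIs had it at 1043 CPM in tumor control and 1417 in tumor IR, against 14.6 and 19.6 in blood, and its part in the classes of low Ly6a was not tested. The level of Ly6a in monocyte-like cells was above that of the empty barcodes of either tumor library.

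Other members moved by class. Ly6i was 14.6 CPM in blood and 266 in tumor in monocyte-like cells (4.18) and 10.4 and 165 in neutrophil-like cells (3.98). In nonclassical monocyte-like cells it was 109 CPM in blood and 94.9 in tumor (-0.20). Empty barcodes held Ly6i at 129 CPM in tumor control and 163 in tumor IR, against 32.2 in blood control and 34.9 in blood IR. Monocyte-like cells of tumor stood above both tumor values. Neutrophil-like cells of tumor were near the value of tumor IR, so their ratio was not read as a difference in expression. The part of free RNA in these classes was not tested. Dendritic cell-like cells had Ly6c2 at 591 CPM in blood and at 17.9 CPM in tumor, there from 17 UMIs in 6.76% of cells, a share near that of T10, so no ratio is given. There Ly6e was 97.1 CPM in tumor and 1338 in blood. With 92 UMIs in tumor it was counted only through blood, so no ratio is given. Different clusters stood behind the name: B8 was led by Cd209a and Clec10a, and T14 by Ccr7, Fscn1 and Ccl22, genes of migrating dendritic cells. Ly6c2 in NK cell-like cells was 887 CPM in tumor and 1725 in blood (-0.96), while Ly6e was higher there, 690 against 283 (1.28). Ly6g in neutrophil-like cells was 12 CPM in tumor, from 15 UMIs, and 130 in blood. It was counted only through blood, so its direction was not read as a result.

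**Figure D5:**
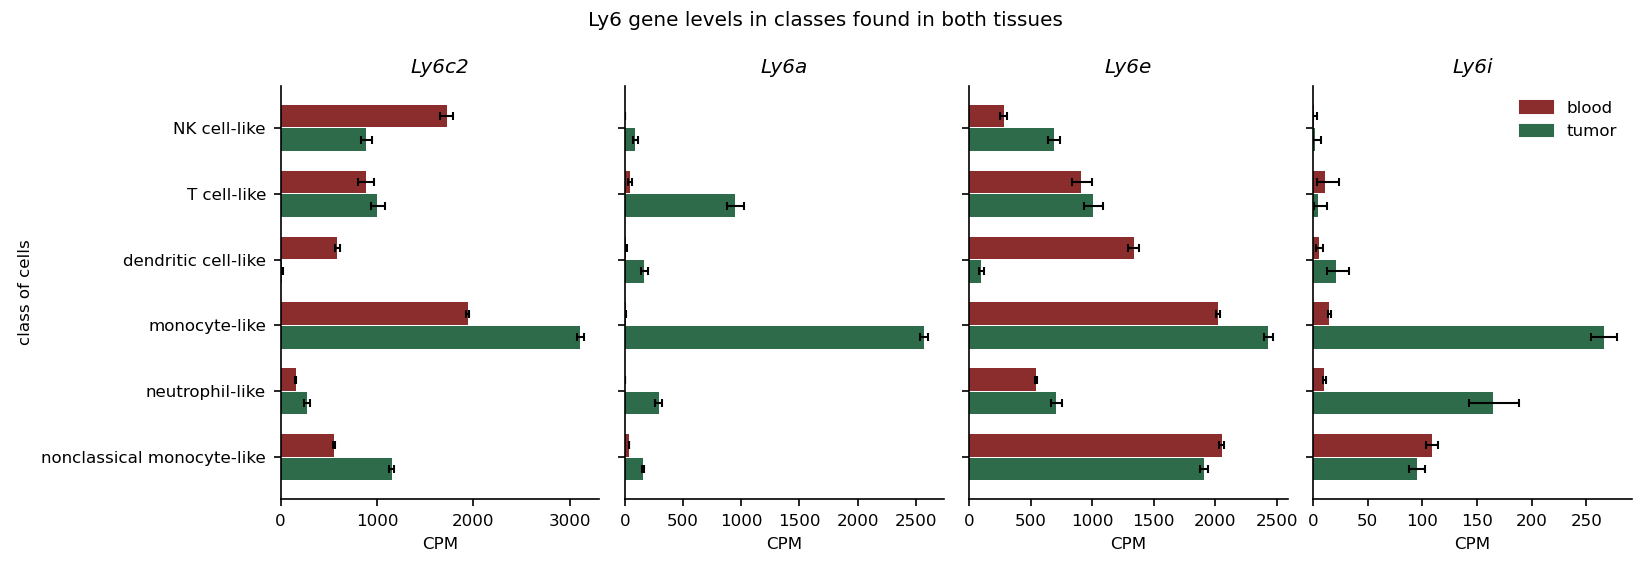
Level of Ly6c2, Ly6a, Ly6e and Ly6i (CPM, linear axes from 0 that differ between panels) in the 6 classes found in blood (red) and tumor (green), with exact Poisson 95% counting intervals. Ly6a is near 0 in blood in every class and reaches 2572 CPM in monocyte-like cells of tumor, while Ly6e differs by less than 2-fold except in dendritic cell-like and NK cell-like cells.

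The genes most like each member were sought over 79 profiles of a cluster in a group with at least 50 cells, as Pearson's r of log2(CPM + 5). These profiles share libraries, depth and clusters, and r is a description. Ly6c1 was most like Sparc (0.94), Crabp2 (0.94) and Serpinh1 (0.94). Over all 79 profiles Ly6c2 was like no gene as closely, with Shisa5 (0.72), Sp110 (0.70) and Gm4070 (0.68) at the top. Within a tissue it was closer to its top genes, H2afz (0.90), Pycard (0.90) and Ndufv3 (0.90) over the 34 blood profiles. Over the 45 tumor profiles these were Plac8 (0.85), Diaph1 (0.80) and Sema4d (0.80). Ly6a was most like Cxcl16 (0.91), Dab2 (0.90) and Iigp1 (0.90), and Ly6i like Havcr2 (0.86), Ifi205 (0.84) and Gch1 (0.83). Ly6e went with H13 (0.79), Pitpna (0.77) and Acer3 (0.76), and Ly6g with Scrg1 (0.98), Mrgpra2a (0.98) and Tmem40 (0.97). Between members over all profiles, Ly6a and Ly6i had the highest r (0.72), and Ly6c1 and Ly6c2, the nearest in sequence, had -0.35. Within a tissue, Ly6c1 and Ly6c2 had 0.54 in blood and -0.47 in tumor, and Ly6a and Ly6i had 0.84 and 0.49. With the summed interferon list, r was 0.67 for Ly6i, 0.57 for Ly6a, 0.47 for Ly6e and 0.17 for Ly6c2, and for Ly6c2 0.46 over the 45 tumor profiles alone and -0.325 over the 34 blood profiles alone.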

How the data were processed

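Droplet 3′ libraries of sorted cells and their hashtag libraries were deposited by the authors as count matrices, with whole UMI counts per gene or hashtag and barcode, not normalized. The submitters' processing notes name Cell Ranger 6.0.1, Seurat 4.0.6 and mm10, whereas a header line of the files names another Cell Ranger version. Barcodes with at least 500 UMIs, 200 genes, at most 25% mitochondrial UMIs and 20 hashtag UMIs were kept, the 6% with the highest Scrublet score (scanpy 1.11.5) in each library were removed as doublets, and the hashtag rule gave the label. This left 28652 cells. Each tissue was clustered in Seurat 5.3.0 (2000 variable genes, 40 principal components, Louvain resolution 0.8) without the Ly6 genes, Ythdf2, Lyz1 and Lyz2. A cluster took a name from at least 3 markers that were in at least 25% of its cells and at least 2-fold higher than elsewhere, and stayed unnamed where its 10 leading genes went against it.

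UMIs were summed per group, with exact Poisson intervals for levels, Clopper-Pearson intervals for shares and exact conditional binomial intervals for ratios (scipy 1.17.1), at 95% confidence. TMM factors came from edgeR 4.0.16, which served for scaling only, and alignments from Biopython 1.88. Each group was 1 sample, so no test was made. The ratio script was tested on simulated data. The members, marker lists and interferon response list were chosen with earlier results of these data known. Named were the 6 members, label check genes, family genes with at least 100 UMIs, genes leading or marking a cluster, and for each member the 3 genes most like it among genes with at least 500 UMIs. Alternatives changed the hashtag rule, cell filters, doublet removal, scaling, UMIs added, the minimum of UMIs, cell weighting and clustering. Readings in the other tumor matrix and without fibroblast-like cells, T3 or B5 were chosen after seeing the data. Ly6C protein was not analysed here.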

Additional observations from a re-analysis of the deposited data

How the results depend on the processing

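Without replicates, no alternative can show whether a ratio exceeds the spread between pools of mice, and thin clusters and the tumor level of Ly6g rest on few UMIs. No paired analysis was possible because each group was 1 sample. All ratios of members past the limit kept their sign under the alternatives run, except Ly6c1 of cKO-labelled tumor cells, IR against control, which was 0.57 without fibroblast-like cells (main -1.34). Members past the limit came to 0 (main 1) for IR in WT-labelled blood cells with the margin hashtag rule or the mean of per-cell CPM, and to 0 (main 1) for the labels of blood control without neutrophil-like cells or without B5. For IR in tumor they were 3 (main 5) in cKO-labelled cells without fibroblast-like cells, 2 (main 1) in WT-labelled cells with no minimum of UMIs, and 0 (main 2) with labels pooled and no hashtag minimum, where 11 genes (main 1927) passed. Without fibroblast-like cells 984 genes (main 2377) passed for IR in cKO-labelled tumor cells, 296 (main 519) for the labels of tumor control and 32 (main 121) for those of tumor IR. Without T3, 369 genes (main 592) passed for IR in WT-labelled tumor cells. For the labels of tumor control, 821 genes passed with the margin hashtag rule and 866 with the mean of per-cell CPM (main 519). A minimum of 20 UMIs gave 404 and 403 genes for IR in blood (WT and cKO label, main 132 and 129), 1149 in WT-labelled tumor cells (main 592), and for the labels 516, 251, 984 and 427 in blood control, blood IR, tumor control and tumor IR (main 215, 60, 519 and 121). No minimum gave 2580, 2570, 3322 and 6113 genes for IR (blood and tumor, WT and cKO label; main 2377 for the last), 2558, 2152, 3085 and 2461 for the labels, and 8487, 9569, 8107 and 7984 for tumor against blood (main 3707, 4725, 3338 and 3262). Lower minimums admit genes of few UMIs by construction, and the cause of the other changes was not tested. The level of Ly6c2 in macrophage-like tumor cells, 552 CPM, was 52.0 and 443 at Louvain resolutions 0.4 and 1.2, 437 with the Ly6 genes in the clustering and 39.3 with the tissues clustered together.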

Other observations

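Among 31 other genes of the Ly6/uPAR family, 5 had at least 100 UMIs over all kept cells and 11 had 0. Plaur, which encodes the urokinase receptor, stood at 327, 337, 275 and 232 CPM in blood (WT and cKO label in control, then in IR) and at 763, 630, 1205 and 1088 CPM in tumor. Its level was highest in neutrophil-like tumor cluster T7, at 2419 CPM. Plaur was higher in tumor past the limit in 3 of 4 pairs, at 1.22, 2.13 and 2.23 on the log2 scale, with 0.90 in cKO-labelled control cells. In those 3 pairs 20.1%, 16.2% and 16.0% of all genes were higher.

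Slurp1, a secreted family member, had 0 UMIs in blood and stood at 19.2 CPM in WT-labelled and 33.2 in cKO-labelled cells of tumor control and at 6.19 and 12.6 in tumor IR. It was highest in T10 (116 CPM), and its IR ratios were -1.63 and -1.40. Ly6d, a marker of early B cells, was highest in B cell-like B12, at 3367 CPM, and at most 0.04 CPM in any tumor group. Lynx1 was also highest in B12 (41.5 CPM), and Lypd6b was highest in the unnamed cluster B14 (59.5 CPM), whose cells had a median of only 622 UMIs.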
